A study of Mus musculus and Canis lupus familiaris with 12 samples.

Results

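The circadian clock repressor genes described here are Per1, Per2, Per3, Cry1, Cry2, Bhlhe40, Bhlhe41, Nr1d1, Nr1d2 and Dbp, 10 genes taken by symbol, ignoring case, from count tables of 78317 mouse rows and 30424 dog rows. All 10 had a row in the mouse table and 9 in the dog table, where no row carried the symbol BHLHE41. RNA came from DLM8, a mouse osteosarcoma line, and Gracie, a dog osteosarcoma line, both labelled wild type and grown in medium with serum. Cells plated the day before were given fresh medium with 50 nM omacetaxine (OMX) for 6 h, while the control cells carry the label untreated, although the protocol speaks of a DMSO control. Omacetaxine is a plant-derived drug that stops ribosomes early in peptide chain elongation. Each line had 3 OMX and 3 untreated libraries of poly(A)-selected RNA, 12 in all, which the labels do not describe as separate cultures. A p-value therefore reflects only how much these libraries varied, which may be technical, and an exact permutation test of 3 against 3 could not go below 0.1.

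The circadian clock is a transcription loop found in most mammalian cells. The factors CLOCK and BMAL1 bind E-box sequences and switch on the Per and Cry genes, whose proteins return to the nucleus and block CLOCK and BMAL1. BHLHE40 and BHLHE41 compete for the same E-boxes, and the nuclear receptors NR1D1 and NR1D2 (REV-ERB alpha and beta) repress the gene of BMAL1. DBP is an activator of D-box sequences and a direct output of the loop, grouped here with the repressors because its gene is switched on and off with theirs. PER and CRY proteins are short-lived, and Per1 and Per2 are also immediate early genes that serum and cyclic AMP can induce. The labels give no time of day and no synchronising step, and RNA was taken at a single time point, so a shift in a rhythm and a change in its level cannot be told apart. Nor can fewer cells of a kind and less RNA per cell, as the RNA came from whole cultures.

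Total counts were 9099313 to 11392715 per library in DLM8 and 2385102 to 3381831 in Gracie, so low rows are less precise in Gracie. OMX was compared with untreated in each line by edgeR's quasi-likelihood test over all rows that passed a filter on low counts, 17109 in DLM8 and 10423 in Gracie. Calls were made at a Benjamini-Hochberg adjusted p under 0.05, and sizes are given as the log2 ratio of OMX to untreated with its standard error (SE). In DLM8 3311 genes were called higher and 2726 lower, a total of 35.3% of those tested, and in Gracie 1308 and 840, or 20.6%. Scaling by library size alone, without TMM, gave 3977 higher and 1991 lower calls in DLM8 and 1084 and 1204 in Gracie and moved the median log2 ratio of all genes from 0.016 to 0.16 and from -0.0064 to -0.14, so a change is stated against the typical gene of its line. Osteoblast lineage markers summed to 2117 to 2920 CPM (counts scaled to a common library size) in untreated and 897 to 1344 CPM in OMX-treated DLM8, with 5 of 10 called lower, and to 153 to 257 and 115 to 138 CPM in Gracie, with 1 of 9 higher (SP7) and 1 lower (SPARC). Of the markers of other cell types, Csf1r in DLM8 (121 CPM untreated) and CD79A in Gracie (291 CPM) made up most of the leukocyte sums of 118 to 210.2 and 233 to 336 CPM, although Itgam was at 0 counts in DLM8 and PTPRC and CD3E in Gracie. Endothelial markers summed to 1.39 to 3.25 CPM untreated and 4.94 to 11.3 CPM with OMX in DLM8 (Kdr and Tek at 0) and to 17.03 to 85.8 CPM in Gracie (TEK at 0), epithelial markers to at most 1.28 CPM (Epcam at 0 in both lines), and their part in the results was not tested.

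A gene's value here is that of its own row. The row of mt-Nd6, a mitochondrial gene on the strand opposite to nearly all others, held 49.9 to 94.1 times the median count of the other 12 mitochondrial coding rows in the 6 DLM8 libraries. In the mouse annotation used, GENCODE M21, 5 of the 10 clock genes overlap a gene on the opposite strand and 5 (Per1, Per2, Per3, Cry1 and Nr1d2) do not. The strand setting of the count step is not given in the sources used here. Counting the strand opposite to each gene would put reads of the strand with the other mitochondrial genes on the mt-Nd6 row. Whether the tables were counted so was not tested. For the 5 overlapping genes the reads of both partners were not told apart, and the partner's values are given beside each. The rows of the 5 genes with no annotated partner, Per1 among them, may likewise hold reads of the opposite strand.

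Of the 10 clock repressor rows, all tested in DLM8, 2 rose with OMX (Per1 and Per3), 1 fell (Nr1d1) and 7 were not called. The called share of 3 in 10 stands beside 35.3% of all genes tested in the line. In Gracie 2 of the 8 tested rows rose (BHLHE40 and NR1D2), none fell (8.06% of all genes did) and 6 were not called, beside 20.6% of all genes tested. The number called was thus near the background in both lines, and what follows is about which genes they were. OMX libraries lay wholly above untreated ones for 3 of the 10 rows in DLM8 (Per1, Per3 and Dbp) and for 5 of the 8 in Gracie (CRY1, CRY2, BHLHE40, NR1D2 and DBP), and wholly below for none. The OMX libraries lay wholly above in 25.6% of all genes tested in DLM8 and in 21.5% in Gracie. With either direction taken, groups did not overlap in 49% and 39.7%. No gene was called in both lines, and the difference between the lines itself passed its test for NR1D2, BHLHE40 and NR1D1. The median log2 ratio was 0.29 over the DLM8 rows and 1.33 over the Gracie rows, with 6 of 10 and 8 of 8 above 0, against medians of 0.016 and -0.0064 over all genes tested. Per3 and Bhlhe41 in DLM8 passed the filter through 1 untreated and 3 OMX libraries, and CRY2 and DBP in Gracie through OMX libraries alone. Such rows were tested because they were high with OMX, so neither median supports a rise. The same limit holds for the Per3 call. It also holds for Per3 in DLM8 and CRY2 and DBP in Gracie among the rows wholly above.

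**Figure D1:**
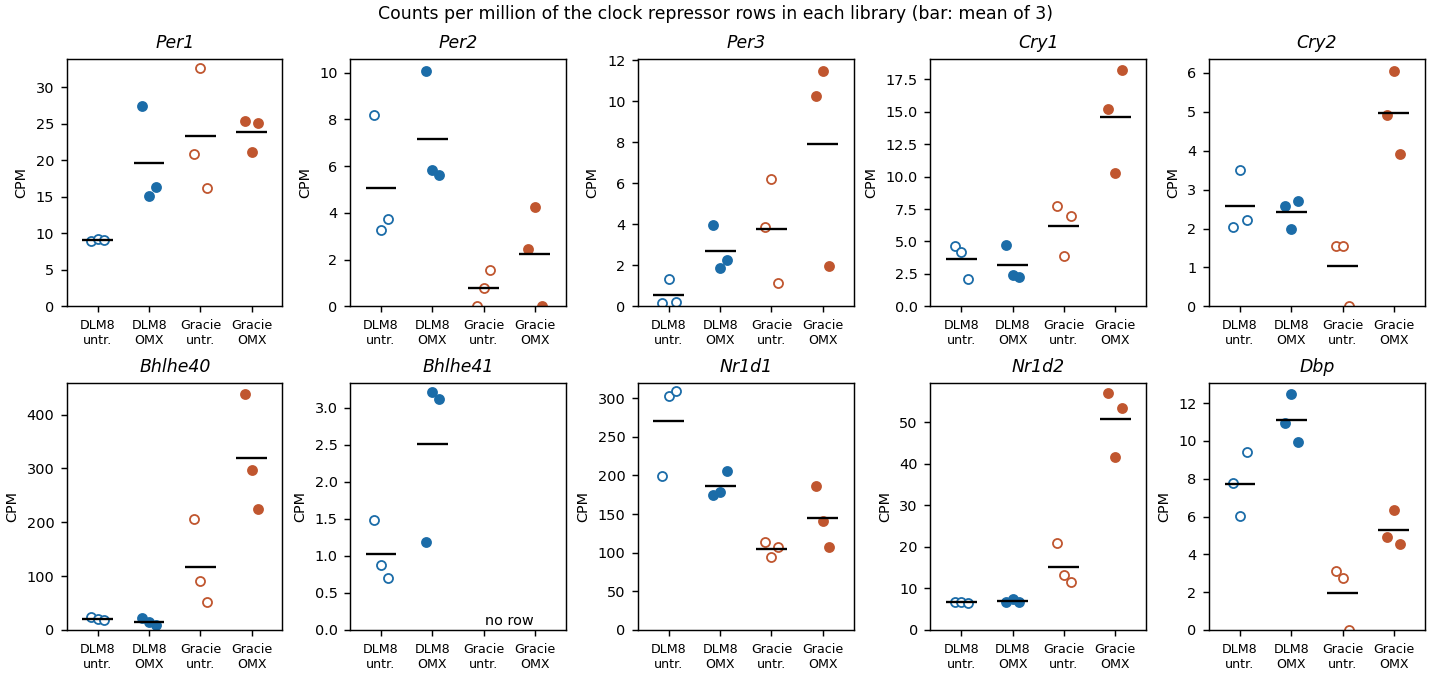
CPM (vertical axis, from 0, a scale of its own in each panel) of the 10 clock repressor rows in each of the 12 libraries. Open points are untreated and filled points OMX libraries, blue for DLM8 and orange for Gracie, and bars are means of 3. Per1 in DLM8 and NR1D2 and BHLHE40 in Gracie have every OMX library above every untreated one, while the Nr1d1 groups overlap in both lines.

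**Figure D2:**
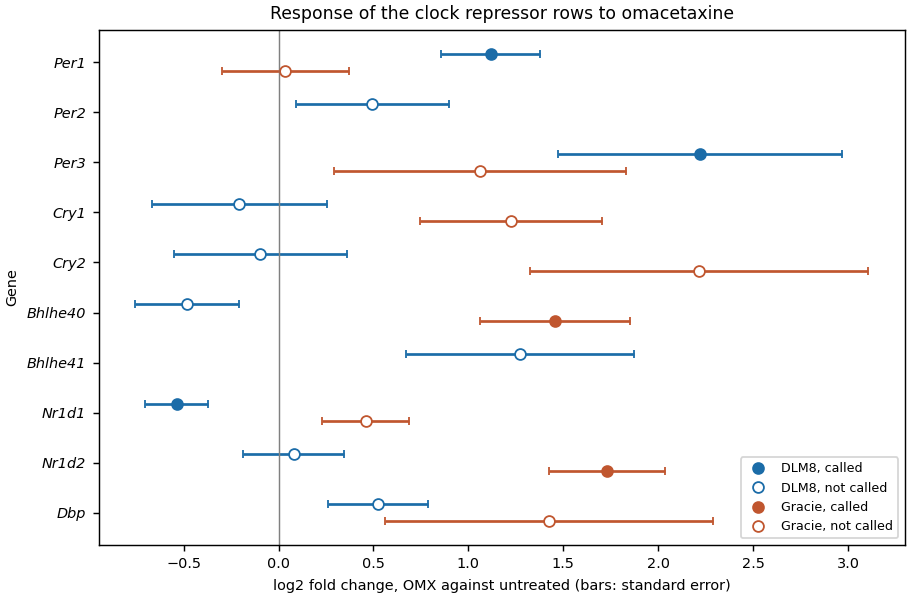
Log2 ratio of OMX to untreated (horizontal axis) for each clock repressor gene (vertical axis), with the standard error as a bar. Filled points have an adjusted p under 0.05 and open points do not. Per1 and Per3 lie right of 0 and Nr1d1 left of 0 among the filled DLM8 points, and BHLHE40 and NR1D2 are the filled Gracie points.

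The Period genes encode the PER proteins, which carry CRY into the nucleus and set the length of the cycle. Per1 (ENSMUSG00000020893) held 8.91, 9.21 and 9.06 CPM in the untreated DLM8 libraries and 27.5, 15.1 and 16.4 CPM in the OMX libraries. The untreated libraries lay close together, each OMX library exceeded them, and OMX replicate 1 was the highest. The mean of the row went from 9.06 ± 0.147 to 19.7 ± 6.79 CPM (SD, n = 3), a 2.17-fold rise (log2 ratio 1.12, SE 0.26, adjusted p = 0.00592). The strand whose reads this and the other clock repressor rows hold was not tested. Per1 was called in all 15 other settings tried, with adjusted p from 0.00052 to 0.0278. In Gracie PER1 (ENSCAFG00000016984) held 20.9, 32.7 and 16.3 CPM untreated and 25.5, 21.2 and 25.1 CPM with OMX. The Gracie groups overlapped fully, with a log2 ratio of 0.04 (SE 0.34, adjusted p = 0.954). The log2 ratio of PER1 was 1.08 higher in DLM8 than in Gracie (SE 0.43), which did not pass the test of the difference (adjusted p = 0.11).

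Per3 (ENSMUSG00000028957), the member of the family least needed for rhythms in mice, was a low row. It held 2, 12 and 2 counts in the untreated DLM8 libraries and 40, 20 and 22 counts with OMX, or 0.578 ± 0.639 and 2.71 ± 1.09 CPM (SD, n = 3). Every OMX library lay above every untreated one. The log2 ratio was 2.22 (SE 0.75, adjusted p = 0.036). The row passed the filter through 1 untreated and 3 OMX libraries. Neither its call nor its place above the untreated libraries therefore supports a rise. This call rested on single libraries, as it was kept without untreated replicate 2 (log2 ratio 3.61, adjusted p = 0.0104) and lost without any other one (log2 ratio 1.76 to 2.41, adjusted p from 0.0635 to 0.119). PER3 in Gracie (ENSCAFG00000019666) held 10, 16 and 3 counts untreated and 25, 38 and 6 with OMX, and replicate 3 was the lowest of both groups, which overlapped. Its log2 ratio of 1.06 (SE 0.77) did not pass the test (adjusted p = 0.355), nor did the difference between the lines of 1.14 (SE 1.07, adjusted p = 0.542).

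Per2, whose loss shortens and then abolishes rhythms in mice, was not called in DLM8. Its row (ENSMUSG00000055866) held 8.17, 3.29 and 3.72 CPM untreated and 10.1, 5.85 and 5.61 CPM with OMX, with replicate 1 the highest in both groups, which overlapped. The log2 ratio was 0.49 (SE 0.40, adjusted p = 0.367). PER2 of Gracie (ENSCAFG00000012433) was too low to test, with 0, 2 and 4 counts untreated and 6, 14 and 0 counts with OMX.

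The promoter windows of the Period genes called in DLM8 are shown because E-boxes and D-boxes are the elements through which the clock acts on these genes. They are RefSeq windows of build GRCm38.p6, from 250 bases before to 50 after the annotated start, and capitals mark matches to the motifs listed after them. The window of Per1 is its upstream one, chr11:69098699-69098998 on the plus strand, and that of Per3 is chr4:151044616-151044915 on the minus strand. The window of Nr1d1, called lower, is chr11:98775328-98775627 on the minus strand.
Per1: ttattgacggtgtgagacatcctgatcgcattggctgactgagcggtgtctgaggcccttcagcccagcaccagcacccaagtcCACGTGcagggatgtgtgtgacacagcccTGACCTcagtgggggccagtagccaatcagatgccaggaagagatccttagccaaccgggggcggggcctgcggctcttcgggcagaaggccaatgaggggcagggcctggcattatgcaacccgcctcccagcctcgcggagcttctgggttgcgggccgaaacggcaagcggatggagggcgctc
Per3: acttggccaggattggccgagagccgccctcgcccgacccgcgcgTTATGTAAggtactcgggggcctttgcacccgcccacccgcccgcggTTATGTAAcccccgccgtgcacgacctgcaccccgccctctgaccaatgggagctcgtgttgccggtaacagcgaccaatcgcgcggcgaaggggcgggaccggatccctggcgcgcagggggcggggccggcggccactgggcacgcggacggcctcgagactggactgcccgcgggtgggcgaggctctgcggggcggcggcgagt
Nr1d1: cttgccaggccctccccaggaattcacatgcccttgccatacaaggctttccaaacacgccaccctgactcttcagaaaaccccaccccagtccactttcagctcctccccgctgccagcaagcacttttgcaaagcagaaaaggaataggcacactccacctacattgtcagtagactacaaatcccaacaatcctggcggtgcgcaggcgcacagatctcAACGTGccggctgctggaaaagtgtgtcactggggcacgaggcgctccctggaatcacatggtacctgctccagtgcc
The motifs searched on both strands were the E-box CACGTG, the related CACGTT, the D-box TTANGTAA, the cyclic AMP response element TGACGTCA and AGGTCA, the core of the site shared by ROR and REV-ERB receptors. Per1 held 1 CACGTG match and 1 AGGTCA match on the opposite strand, Per3 held 2 TTANGTAA matches, both TTATGTAA, and Nr1d1 held 1 CACGTT match on the opposite strand. Windows were given for 8 of the 10 genes, 9 windows in all as Per1 has 2, and those of Bhlhe40 and Per2 are not shown. CACGTG was in 3 of the 9 windows (Per1, Cry1 and Bhlhe41) and in 7.15% of all 32851 windows, CACGTT in 3 (Cry1, Cry2 and Nr1d1) and in 4.68%. TTANGTAA was in 1 and in 2.32%, AGGTCA in 2 (Per1 and Nr1d2) and in 16.3%, and TGACGTCA in none and in 1.79%. TGACG, the first part of that element, is not capitalised and was in 4 windows (both of Per1, Cry1 and Cry2) and in 20.8% of all. A match describes letters only, and genes called and not called in DLM8 were among those with CACGTG.

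The Cryptochrome genes encode the strongest repressors of CLOCK and BMAL1. In DLM8 neither was called. Cry1 (ENSMUSG00000020038) held 4.64, 4.16 and 2.09 CPM untreated and 4.74, 2.45 and 2.28 CPM with OMX, overlapping groups with a log2 ratio of -0.21 (SE 0.46, adjusted p = 0.759). Cry2 (ENSMUSG00000068742) held 22, 32 and 19 counts untreated and 26, 21 and 26 counts with OMX, the same sum of 73 in both groups (log2 ratio -0.10, SE 0.46, adjusted p = 0.891). The row opposite Cry2, D930015M05Rik, held 5.15 times its counts and went from 11.8 ± 4.11 to 13.5 ± 4.98 CPM (log2 ratio 0.19, SE 0.32, adjusted p = 0.675). In Gracie both rows were above their untreated values in every OMX library without being called. CRY1 (ENSCAFG00000001797) held 7.75, 3.89 and 6.97 CPM untreated and 15.2, 10.3 and 18.2 CPM with OMX, a log2 ratio of 1.22 (SE 0.48, adjusted p = 0.088). CRY2 (ENSCAFG00000009379) held 4, 4 and 0 counts untreated and 12, 20 and 12 counts with OMX (log2 ratio 2.21, SE 0.89, adjusted p = 0.0944). CRY2 passed the filter through OMX libraries alone. The log2 ratio in DLM8 less that in Gracie was -1.43 for CRY1 (SE 0.66, adjusted p = 0.175) and -2.34 for CRY2 (SE 0.93, adjusted p = 0.111), neither passing the test.

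BHLHE40 and BHLHE41, also named DEC1 and DEC2, are E-box repressors that respond to serum, hypoxia and cytokines as well as to the clock. BHLHE40 rose in Gracie (ENSCAFG00000005621), from 207, 91.5 and 51.1 CPM untreated to 438, 297 and 224 CPM with OMX. Every OMX library lay above every untreated one, though the highest untreated library, replicate 1, was close to the lowest OMX library, replicate 3. The log2 ratio was 1.46 (SE 0.39, adjusted p = 0.0183), a 2.75-fold rise. Leaving out untreated replicate 2 ended the call (adjusted p = 0.103), as did leaving out OMX replicate 1 (0.095) or 2 (0.0534) or using DESeq2 (0.082). Over its 14 other settings the adjusted p ran from 1.2e-08 to 0.103. In DLM8 Bhlhe40 (ENSMUSG00000030103) held 23.2, 20.8 and 19.2 CPM untreated and 21.7, 14.0 and 9.55 CPM with OMX, with the groups overlapping through OMX replicate 1. Its log2 ratio of -0.48 (SE 0.27) was not called (adjusted p = 0.192), and without OMX replicate 1 it was -0.86 (adjusted p = 0.0105). The non-coding row opposite it, 0610040F04Rik, held 15.9 times its counts and went from 256 ± 37.1 to 315 ± 88.8 CPM (SD, n = 3), also not called (log2 ratio 0.30, SE 0.18, adjusted p = 0.224).

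Bhlhe41 (ENSMUSG00000030256) was a low row in DLM8, with 16, 8 and 6 counts untreated and 12, 34 and 30 counts with OMX. OMX replicate 1 lay within the untreated range, and the log2 ratio of 1.27 (SE 0.60) did not pass the test (adjusted p = 0.121). The row of Gm43909, the gene model annotated opposite it over 1280 exonic bases, held 14.0 times its counts. Gm43909 rose from 23.2, 17.5 and 18.4 to 29.4, 29.8 and 31.5 CPM, all 3 OMX libraries above the untreated ones (log2 ratio 0.62, SE 0.18, adjusted p = 0.0211).

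Nr1d1 encodes REV-ERB alpha, the heme-binding receptor that represses the BMAL1 gene, and lies tail to tail with Thra, the gene of thyroid hormone receptor alpha. The Nr1d1 row (ENSMUSG00000020889) was the best counted of the 10 in DLM8, with 7568 counts over the untreated and 5638 over the OMX libraries. It held 199, 302 and 309 CPM untreated and 175, 178 and 206 CPM with OMX. Both groups overlapped, since untreated replicate 1 lay below OMX replicate 3. The fall from 270.3 ± 61.6 to 186 ± 17.2 CPM (SD, n = 3) was called (log2 ratio -0.54, SE 0.17, adjusted p = 0.0238). Leaving out untreated replicate 2 (adjusted p = 0.102) or 3 (0.0956) or OMX replicate 2 (0.082), or scaling by library size alone (0.0821), ended the call. The Thra row (ENSMUSG00000058756), whose annotated exons share 263 bases with those of Nr1d1, moved the other way, from 34.3, 43.6 and 56.2 CPM to 205, 109.7 and 102 CPM. Every OMX library held more than the highest untreated one, a 3.11-fold rise (log2 ratio 1.64, SE 0.26, adjusted p = 0.000503). The sum of both rows was 315 ± 71.2 CPM untreated and 325 ± 48.3 CPM with OMX (log2 ratio 0.047, SE 0.17, adjusted p = 0.849). These changes are those of the 2 rows, and whose reads each row holds was not tested.

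In Gracie NR1D1 (ENSCAFG00000016150) held 114, 94.2 and 108 CPM untreated and 186, 141 and 108 CPM with OMX, overlapping through OMX replicate 3 (log2 ratio 0.46, SE 0.23, adjusted p = 0.175). THRA in Gracie, looked up as the counterpart of the mouse neighbour because dog gene positions were not used here, held 138, 170.1 and 156 CPM untreated and 695, 455 and 391 CPM with OMX. It rose 3.32-fold (log2 ratio 1.73, SE 0.23, adjusted p = 0.000195). DLM8 less Gracie, the log2 ratio differed by -0.09 for Thra (SE 0.38, adjusted p = 0.911) and by -0.996 for NR1D1 (SE 0.31, adjusted p = 0.0414).

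Nr1d2 encodes REV-ERB beta, the partner of NR1D1 that covers for its loss. In Gracie NR1D2 (ENSCAFG00000005754) had the smallest p of the clock repressors, from 20.9, 13.2 and 11.6 CPM untreated to 57.1, 41.8 and 53.4 CPM with OMX. The lowest OMX library lay well above the highest untreated one. The mean went from 15.3 ± 4.97 to 50.8 ± 7.998 CPM (SD, n = 3), a 3.32-fold rise (log2 ratio 1.73, SE 0.31, adjusted p = 0.00138), and the call was kept in all 14 other settings (adjusted p up to 0.0125). In DLM8 Nr1d2 (ENSMUSG00000021775) held 6.68, 6.79 and 6.51 CPM untreated and 6.72, 7.55 and 6.85 CPM with OMX. These groups overlapped and all 6 libraries lay close together. Its log2 ratio was 0.08 (SE 0.27, adjusted p = 0.84). No gene faces Nr1d2 in GENCODE M21.

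Dbp encodes a PAR bZIP activator whose level swings widely over the day in many tissues. Its row (ENSMUSG00000059824) held 7.80, 6.03 and 9.41 CPM in untreated DLM8 and 10.96, 12.5 and 9.97 CPM with OMX. The groups did not overlap, but the log2 ratio of 0.52 (SE 0.26) was not called (adjusted p = 0.14). The row of Sphk2, the sphingosine kinase gene that overlaps Dbp by 539 exonic bases on the other strand, held 11.4 times the counts. Sphk2 rose from 72.4, 62.0 and 58.9 to 206, 124 and 114 CPM, a log2 ratio of 1.20 (SE 0.21, adjusted p = 0.000921). The 3 OMX libraries all exceeded the untreated ones and replicate 1 was again the highest. In Gracie DBP (ENSCAFG00000003928) held 8, 7 and 0 counts untreated and 12, 21 and 14 counts with OMX (log2 ratio 1.43, SE 0.86, adjusted p = 0.265). This DBP row passed the filter through OMX libraries alone. The SPHK2 row of Gracie went from 46.1, 62.3 and 43.4 CPM to 161, 102 and 96.4 CPM (log2 ratio 1.24, SE 0.26, adjusted p = 0.00392). The lines differed by -0.04 in the Sphk2 response (SE 0.36, adjusted p = 0.96) and by -0.92 in the DBP response (SE 0.76, adjusted p = 0.486).

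**Figure D3:**
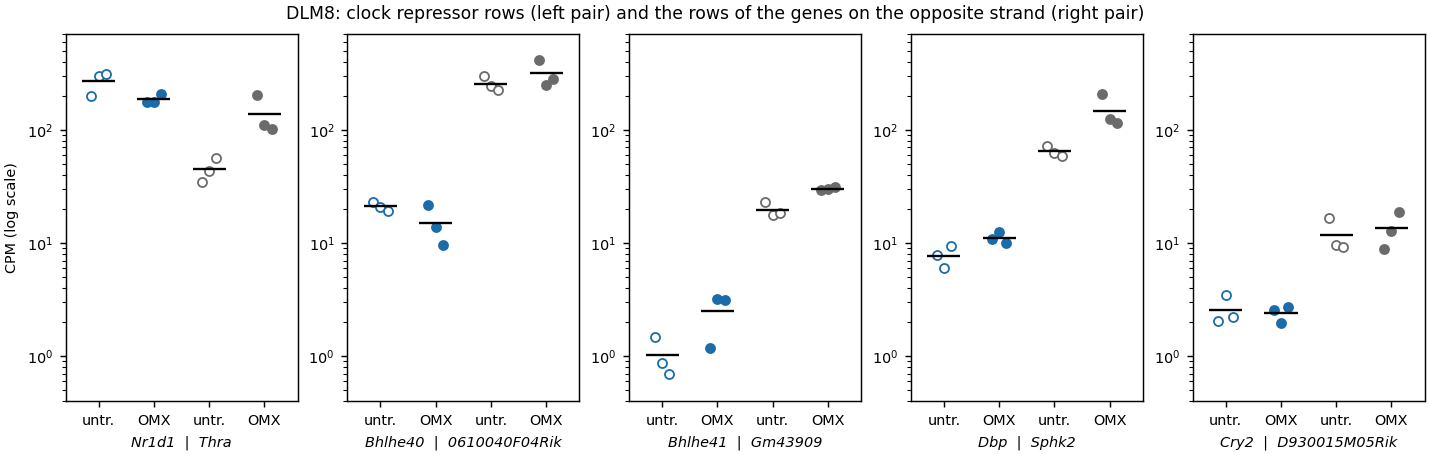
DLM8 CPM on a log scale (vertical axis) for 5 clock repressor rows (blue, left in each panel) and for the rows of the genes annotated on the opposite strand (grey, right), open points untreated and filled points OMX, bars means of 3. The Thra, Gm43909 and Sphk2 rows are higher in all OMX libraries, and every opposite row but Thra holds more counts, not scaled by length, than the clock repressor row beside it, 5.15 to 15.9 times as many.

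With each of these 5 DLM8 genes tested as the sum of its own row and the opposite one, 4 clock repressors were called higher and 0 lower, beside 20.7% of all genes called higher and 37.4% called at all. Dbp (72.2 ± 6.94 to 159 ± 50.5 CPM, log2 ratio 1.14, SE 0.20, adjusted p = 0.00112) and Bhlhe41 (20.7 ± 3.46 to 32.7 ± 1.99 CPM, 0.66, SE 0.18, adjusted p = 0.0146) joined Per1 and Per3. The Bhlhe40 sum changed sign to 0.25 (SE 0.18, adjusted p = 0.303) and the Cry2 sum to 0.14 (SE 0.28, adjusted p = 0.712). Except for Nr1d1, most of each sum is the opposite row's own counts, so the sum shows the pair and not the clock gene. Per3, with no opposite gene in GENCODE M21, was tested because it was high with OMX.

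The test of the difference between the lines ran over 7566 genes with 1 row of the same symbol in each table, of which 12.1% were called. Of the 8 clock repressors in it 3 were called, all with the lower response in DLM8, against 6.2% of all genes. BHLHE40 differed by -1.94 (SE 0.53, adjusted p = 0.0212), NR1D2 by -1.65 (SE 0.39, adjusted p = 0.00837) and NR1D1 by -0.996 (SE 0.31, adjusted p = 0.0414) in log2 ratio. NR1D2 was called without any one of the 12 libraries, BHLHE40 in 9 of these 12 fits (adjusted p up to 0.0638) and NR1D1 in 4 (up to 0.112). The median difference over all shared genes was -0.12, with 445 called higher in DLM8 and 469 lower. Scaling by library size alone gave a median of 0.15 with 653 higher and 241 lower, and there NR1D1 was not called (-0.70, adjusted p = 0.147) and PER1 was (1.36, adjusted p = 0.0446).

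The factors that the repressors act on were listed as clock activators. In DLM8 2 of the 4 tested rose, beside 19.4% of all genes tested, and the others were not called. The shares of all genes called at all, 35.3% in DLM8 and 20.6% in Gracie, are the background for every list that follows. As the lists were chosen with earlier results of these data known, a share above the background does not show that a list responds more. Npas2, which can stand in for CLOCK and whose gene also overlaps an opposite-strand gene model, went from 18, 16 and 12 counts to 48, 89 and 105 (log2 ratio 2.31, SE 0.41, adjusted p = 0.000982), and Bmal1, the gene that NR1D1 and NR1D2 repress, from 2.83 ± 0.365 to 5.69 ± 1.19 CPM (1.01, SE 0.36, adjusted p = 0.0462). Whether other genes of the lists beyond the repressors overlap opposite-strand gene models is not given here. In Gracie none of the 4 activators tested was called. The dog row of BMAL1, named ARNTL, had nearly the same log2 ratio of 1.06 (SE 0.37) and missed the threshold (adjusted p = 0.0541). It was the 1 activator of the 4 with an unadjusted p under 0.05. Its OMX libraries lay wholly above the untreated ones, and those of CLOCK lay wholly below (log2 ratio -0.40, SE 0.28, adjusted p = 0.34). Groups did not overlap in 39.7% of all genes tested in Gracie. Of 10 DLM8 clock kinase genes 1 fell, Csnk2a1 (-0.65, SE 0.22, adjusted p = 0.0356), and of 8 in Gracie 1 rose, GSK3A (1.26, SE 0.22, adjusted p = 0.00123). Csnk1d, whose kinase marks PER proteins for destruction, was not called in DLM8 (-0.39, SE 0.21, adjusted p = 0.172).

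Of the genes for PER and CRY turnover 1 of 12 fell in DLM8 (Ddb1, -0.67, SE 0.15, adjusted p = 0.00444) and 1 of 9 rose in Gracie (HUWE1, 0.59, SE 0.19, adjusted p = 0.038), called shares of 8.33% and 11.1% that lie below those of all genes, 35.3% and 20.6%. Of the clock cofactor genes 4 were higher and 3 lower of 17 in DLM8, or 41.2% called beside 35.3% of all genes. In Gracie 5 of 16 were higher and 0 lower, beside 12.5% and 8.06% of all genes. Crebbp, the gene of a histone acetylase that works with CLOCK, rose in both, by 1.31 (SE 0.25, adjusted p = 0.00164) and 1.40 (SE 0.21, adjusted p = 0.000422). The CREB and CRTC light-input genes, of the cyclic AMP route by which signals reach Per1 and of its other targets, had 6 higher and 2 lower of 12 in DLM8, beside 19.4% and 15.9% of all genes, and 5 higher and 0 lower of 9 in Gracie, beside 12.5% and 8.06%. Sik1, a kinase gene that damps this route, rose from 12.7 ± 0.895 to 43.0 ± 6.12 CPM in DLM8 (log2 ratio 1.76, SE 0.19, adjusted p = 2.32e-05). No dog row carried the symbol SIK1. DUSP1, an immediate early phosphatase gene, rose in Gracie from 29.6 ± 11.9 to 114 ± 39.5 CPM (1.94, SE 0.32, adjusted p = 0.000882). Gem had the smallest p of the list in both lines, but held 2, 0 and 0 counts in the untreated DLM8 libraries. Id2 (-1.52, SE 0.43, adjusted p = 0.0161) and Atf1 (-0.75, SE 0.21, adjusted p = 0.0167) were the 2 called lower in DLM8. Clock output genes had 3 higher and 1 lower of 13 in DLM8 and 3 higher and 0 lower of 12 in Gracie, called shares of 30.8% and 25% that are near the 35.3% and 20.6% of all genes. Pfkfb3, of a glycolytic regulator, was among the higher in both (1.04, SE 0.21, and 2.98, SE 0.41). The other D-box factors, Tef and Nfil3, were not called in either line.

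**Figure D4:**
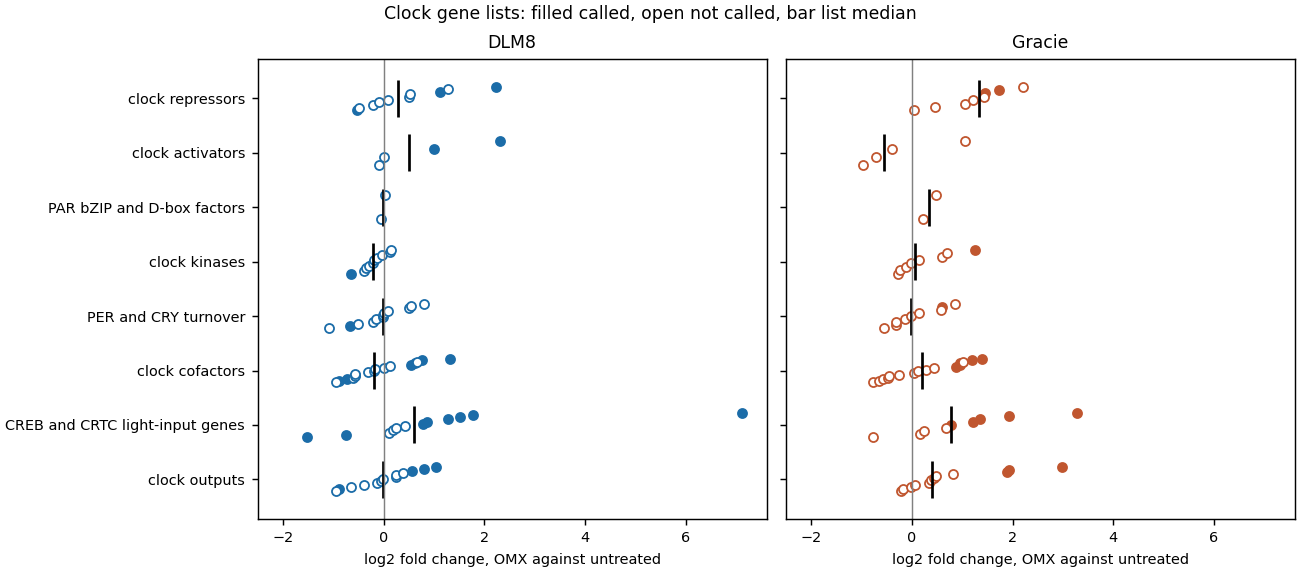
Log2 ratio of OMX to untreated (horizontal axis) for the tested genes of 8 clock gene lists (rows), DLM8 left and Gracie right. Filled points have an adjusted p under 0.05, open points do not, and black bars are list medians, 0.29 in DLM8 and 1.33 in Gracie for the repressors.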

How the data were processed

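The deposited mouse and dog tables hold raw counts per gene, whole numbers not scaled by the authors. The submitters' processing notes name STAR, featureCounts, Subread and the builds CanFam3.1, mm39 and GRCm39. Versions, the strand setting and the treatment of mates are not given there. Between 67.7% and 73.7% of the nonzero values of a library were even. Counting both mates of a fragment would favour even values and make the counts given here exceed the fragments, which was not tested. Every column matched a library name in the labels (0 did not).

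Counts of each line were fitted separately with edgeR 4.0.16 in R 4.3.3 (filterByExpr, TMM, quasi-likelihood F-test, Benjamini-Hochberg over all genes tested). SE was taken as the size of the log2 ratio over the square root of F, and CPM use TMM-scaled library sizes. The difference between the lines is the interaction of line and treatment, with scaling within each line. Alternatives were DESeq2 1.42.0, other scalings, no filter, halved counts, a replicate block, summed opposite-strand rows, rows with a symbol only, and each library left out. The procedure was tested on simulated data. Opposite-strand genes were found in GENCODE M21, whose build (GRCm38) differs from that of the mouse table. The annotation of the mouse table itself was not searched, so further opposite-strand genes may have been missed. The members and lists were chosen with earlier results of these data known. All members and their opposite-strand genes are named, with examples from the 3 genes of smallest p per other list and line; dog counterparts were added after the values were seen.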

Additional observations from a re-analysis of the deposited data

Results flagged for a closer look

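The responses of 3 clock repressors to OMX differed between the lines by the test of the interaction of line and treatment over 7566 shared genes. For NR1D2 the log2 difference, DLM8 less Gracie, was -1.65 (SE 0.39, adjusted p = 0.00837, edgeR), with 3 of 3 Gracie OMX libraries above the untreated ones and the DLM8 groups overlapping. For BHLHE40 it was -1.94 (SE 0.53, adjusted p = 0.0212), again with 3 of 3 Gracie OMX libraries higher, and in DLM8 the opposite row holds 15.9 times the counts of the Bhlhe40 row. For NR1D1 it was -0.996 (SE 0.31, adjusted p = 0.0414), with overlapping groups in both lines. The opposite Thra row rose in DLM8 and the THRA row rose in Gracie. By the same test the THRA difference was -0.09 (adjusted p = 0.911). The part of the opposite rows in these differences was not tested.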

How the results depend on the processing

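In DLM8 the number of clock repressors called (3) was 1 to 3 when single libraries were left out, 1 without untreated replicate 3 or OMX replicate 2. In Gracie it was 2, and 1 to 2 with single libraries left out (1 without untreated replicate 2, OMX replicate 1 or OMX replicate 2) and 1 with DESeq2. For the difference between the lines it was 3, and 1 to 3 with single libraries left out (1 without Gracie untreated replicate 2 or Gracie OMX replicate 1). With single libraries left out, all genes called in Gracie, 2148, ranged from 1222 without OMX replicate 2 to 2387 without untreated replicate 1. Counts of all genes called stayed within 1.5 times the main count under every other setting run in either line and for the difference. Signs changed for 4 genes. With summed opposite rows Nr1d1, called lower at -0.54, gave 0.047 and was not called, while Bhlhe40 gave 0.25 in place of -0.48 and Cry2 0.14 in place of -0.10, and with scaling by library size alone Cry2 gave 0.046 and PER1 in Gracie -0.096. With single libraries left out Cry2 ran from -0.26 to 0.17 and PER1 in Gracie from -0.18 to 0.34. The cause was not tested. The labels give both groups replicate numbers 1 to 3, but same-numbered libraries did not deviate together in every pair (r of -0.020 to 0.20 across genes), and not every library correlated best with its own number. A replicate block gave 6846 calls in DLM8, 2437 in Gracie and 1124 for the difference, and changed the call of no clock repressor. Rows with counts near or under 20 in most untreated libraries, such as Per3 and Bhlhe41 in DLM8 and PER2, PER3, CRY1, CRY2 and DBP in Gracie, are limited by depth. With counts halved, Per3 and Bhlhe41 in DLM8 and PER3, CRY2 and DBP in Gracie no longer passed the filter. There 2 of the 8 clock repressors tested were called in DLM8 and 2 of 5 in Gracie.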
